A study of Mus musculus with 25 samples.

Results

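The 8 genes described here encode plasma membrane carriers of amino acids in the mouse. They are Slc38a1, Slc38a2, Slc38a3 and Slc38a5 of the Slc38 family, Slc7a1, Slc7a5 and Slc7a10 of the Slc7 family, and Slc3a2, the partner chain of Slc7a5 and Slc7a10. They were taken by name from tables of 45706 and 44674 genes, and all 8 were listed in both. The set was chosen by name, and Slc38a3 was selected on its measured enrichment in precipitated ribosomes over whole lysate. Levels in that contrast are therefore given as a description, with no test.

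The hypothalamic groups were HFD IP, CD IP, HFD INPUT and CD INPUT, with 4 libraries each. All of these mice, on both diets, were Slco1c1CreERT2tg/wt::ROSA26lSlL10aGFPtg/wt, so that tamoxifen had switched on a GFP-tagged ribosomal protein L10a in cells with an active Slco1c1 promoter. They were 12 weeks old and, from 3 weeks after tamoxifen, ate a high-fat diet (HFD) or a control diet (CD) for 3 days. A library was a pool of 4 hypothalami, from 2 females and 2 males, and was made either from RNA bound to the tagged ribosomes (IP) or from the whole lysate (INPUT). The second experiment used cEND, an endothelial cell line from mouse brain, with the DMSO vehicle or with 0.5 or 10 µM of WZB117, which blocks glucose uptake through Glut1. Each of these 3 groups held 1 library at passage 12, 14 and 18, so its replicates are passages of 1 line.

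Library totals were 27.9 to 41.2 M in IP, 29.0 to 42.8 M in INPUT and 27.3 to 41.3 M in cEND (M, 1e+06 counts). The labels call the hypothalamic samples endothelial. Levels are in CPM, counts scaled to a library total of 1e+06. The 18 endothelial markers summed to 314 to 419 CPM in HFD IP and 347 to 463 CPM in CD IP. In INPUT they summed to 64.2 to 86.2 CPM with HFD and 68.9 to 79.9 CPM with CD. The 12 astrocyte markers summed to 45856 to 50667 CPM in HFD IP and 49242 to 58070 CPM in CD IP. In INPUT these summed to 5795 to 6479 CPM with HFD and 5760 to 7769 CPM with CD. Both sums were thus higher in every IP library than in any INPUT library. No marker of either list was at 0 in all libraries of an IP group, and 1 of 18 endothelial markers averaged under 1 CPM in each IP group. In cEND cells the endothelial markers summed to 5870 to 8332 CPM, with 4 of 18 averaging under 1 CPM and Slco1c1 at 0 in every group, and the astrocyte markers to 155 to 189 CPM. In such bulk RNA, fewer cells of a type and less RNA per cell cannot be told apart.

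The carriers fall into classes by what they move. Slc38a1 and Slc38a2 encode SNAT1 and SNAT2, the system A carriers that couple uptake of glutamine, alanine and other small neutral amino acids to sodium. Slc38a3 and Slc38a5 encode SNAT3 and SNAT5, the system N carriers of glutamine and histidine, which exchange protons and can run outward; in brain SNAT3 is known for the release of glutamine from astrocytes. Slc7a1 encodes CAT1, which carries arginine and lysine. Slc7a5 (LAT1) and Slc7a10 (Asc-1) are light chains that move large neutral amino acids and small ones such as glycine and D-serine, and both reach the membrane bound to the 4F2 heavy chain (CD98) encoded by Slc3a2. LAT1 is a main route of essential amino acids across the blood-brain barrier, and several of these genes are targets of ATF4, a transcription factor made when amino acids are short or the endoplasmic reticulum is stressed.

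ATF4 binds DNA elements with the letters TGATGNAAN, and elements of this kind were described in the first intron of the human SNAT2 gene and in the first exon of the rat CAT1 gene. The letters were searched on both strands in the first 1000 bases after the start of each of the 8 genes in the mouse genome, and every match is shown because elements of this kind are known from relatives of these genes. Matches lay in 3 of the 8 genes, against 10.9% of 21938 protein-coding genes. The 4 matches are shown with 10 bases on each side, 5′ to 3′ on the strand of the gene, with the matching letters in capitals.
Slc38a2 intron: gcccctcggtATTGCATCAgttcctcccg
Slc7a1 exon: ggcgcgcggcTGATGAAACcggctcggat
Slc7a1 intron: gcgtggtgcaTGATGCAACagcgggaggg
Slc38a1 intron: ggggggaaacTGATGCAACcagccctggg

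In GRCm38, the Slc38a2 match lay at chr15:96699177-96699185, 546 bases after the gene's start on the minus strand, and read the motif on the opposite strand. The exonic Slc7a1 match lay at chr5:148399830-148399838, 67 bases after the start and outside the coding part, and the intronic one at chr5:148399499-148399507. The Slc38a1 match lay at chr15:96642445-96642453. The labels hold for some annotated transcripts only. The Slc38a1 match lay within 1 of 7 transcripts and the Slc38a2 match within 1 of 2. Of 6 Slc7a1 transcripts, 1 held the exonic match and 2 spanned the intronic one. All 4 are letters in the reference and not measured binding. In the same window Slc38a3, Slc38a5, Slc7a5, Slc7a10 and Slc3a2 did not hold these letters, which says nothing of other windows.

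Precipitated RNA and whole lysate held different mixtures of these carriers. Slc38a3, Slc38a5, both light chains and the heavy chain were higher in IP than in INPUT, whereas Slc38a1, Slc38a2 and Slc7a1 were lower. Slc38a3 was selected on this contrast, and Slc38a5 passed the filter on low counts among IP libraries but not among INPUT libraries. Their direction is therefore no evidence for system N as a class. Each of the 8 genes had 8 IP libraries on one side of its 8 INPUT libraries, which was also true of 61.8% of 16562 genes tested. Of those genes 84.5% passed an adjusted p of 0.05 between IP and INPUT, so neither count sets the carriers apart.

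Slc38a3 (ENSMUSG00000010064, chr9:107650634-107669530, minus strand) had 105, 136, 76.2 and 111 CPM in the HFD IP libraries and 96.9, 93.9, 115 and 111 CPM in the CD IP libraries. In INPUT it had 8.79, 10.5, 7.45 and 9.81 CPM with HFD and 7.36, 8.64, 9.83 and 9.31 CPM with CD. Every IP library was above every INPUT library, and the HFD IP libraries held both the lowest and the highest IP level. IP exceeded INPUT by 3.51 ± 0.11 on the log2 scale (SE), or 11.4-fold. Of the genes tested 0.115% had a larger log2 value. Because Slc38a3 was selected on this contrast, that rank is a description and no evidence. Its system N relative Slc38a5 (ENSMUSG00000031170, chrX:8271133-8280179, plus strand) was near the limit of detection, at 0.367 to 0.902 CPM in IP (median 0.511) and 0.0271 to 0.200 CPM in INPUT (median 0.144). The estimate for Slc38a5 of 1.92 ± 0.32 rested on 1 to 27 counts per library.

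The heavy chain Slc3a2 (ENSMUSG00000010095, chr19:8706882-8723369, minus strand) ran from 93.3 to 116 CPM in IP (median 104) and from 19.8 to 22.8 CPM in INPUT (median 20.6), a log2 difference of 2.26 ± 0.05. Slc7a10 (ENSMUSG00000030495, chr7:35186385-35201114, plus strand) ran from 43.1 to 73.1 CPM in IP (median 55.7) and from 6.86 to 9.48 CPM in INPUT (median 8.41), a difference of 2.72 ± 0.09. Slc7a5 (ENSMUSG00000040010, chr8:121881150-121907694, minus strand) ran from 32.0 to 51.6 CPM in IP (median 42.0) and from 10.9 to 13.2 CPM in INPUT (median 12.0), a difference of 1.71 ± 0.07. The 3 subunits were thus all higher in IP, with no overlap. Slc7a5 overlaps Gm20388 and Slc7a10 overlaps Lrp3 on the opposite strand, and since the strand setting of the counting is not given in the sources used here, reads of the partners cannot be told apart.

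The remaining carriers ran the other way. Slc38a2 (ENSMUSG00000022462, chr15:96687392-96699730, minus strand) ran from 13.1 to 16.7 CPM in IP (median 14.6) and from 56.4 to 68.6 CPM in INPUT (median 62.4), a log2 difference of -2.13 ± 0.06. Slc38a1 (ENSMUSG00000023169, chr15:96571418-96642913, minus strand) ran from 54.3 to 72.0 CPM in IP (median 68.0) and from 120 to 139 CPM in INPUT (median 125), a difference of -1.01 ± 0.05. Slc7a1 (ENSMUSG00000041313, chr5:148327410-148399904, minus strand) ran from 11.7 to 15.9 CPM in IP (median 13.9) and from 24.3 to 28.0 CPM in INPUT (median 26.0), a difference of -0.96 ± 0.06. No library of these 3 genes crossed between IP and INPUT. Marker lists of other cell types differed between the fractions as well. Neuron markers summed to 3649 to 5164 CPM in HFD IP and 4159 to 4642 CPM in CD IP, against 9066 to 11339 CPM in HFD INPUT and 9552 to 10876 CPM in CD INPUT. The medians for CD were 689 CPM in IP and 2776 CPM in INPUT for oligodendrocyte markers, 34.9 CPM in IP and 338 CPM in INPUT for microglia, and 129 CPM in IP and 19.9 CPM in INPUT for choroid plexus. Ribosomal RNA took 2.81 to 3.5% of counts in IP and 26.9 to 33.5% in INPUT, and mitochondrially encoded RNA 0.0533 to 0.0786% in IP and 28.1 to 36.2% in INPUT. Their part in the carriers' values was not tested. Of the other Slc38 and Slc7 carriers, 2 of 14 measured were higher in IP and 11 lower, against 42.5% of all genes higher and 42% lower. The 2 were Slc7a11, the cystine-glutamate exchanger, at 1.90 ± 0.05 and Slc7a2, a cationic amino acid carrier, at 2.04 ± 0.07. Glul, which makes glutamine from glutamate, differed by 2.40 ± 0.06.

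**Figure D1:**
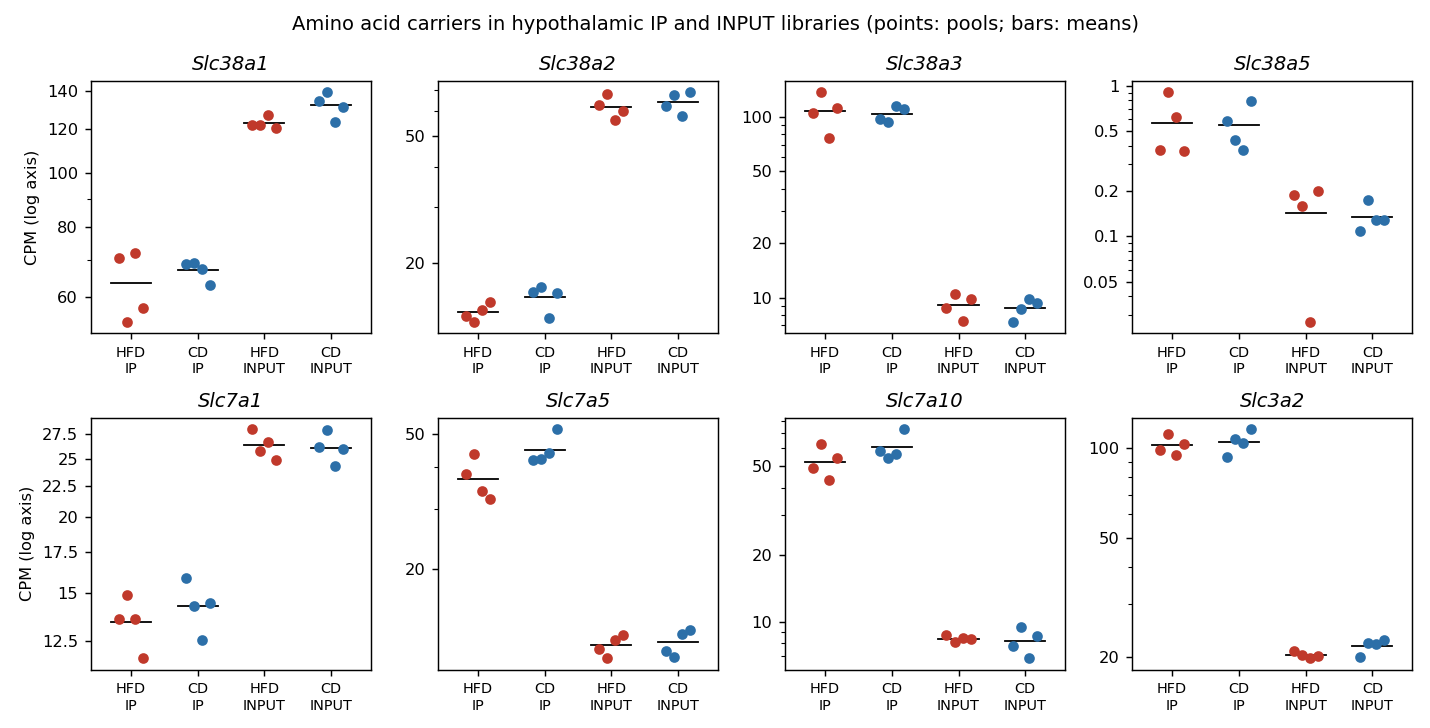
Level of each carrier in CPM (log axis, with a range of its own in each panel) in HFD IP, CD IP, HFD INPUT and CD INPUT libraries. A point is 1 pool and a bar the mean of 4; Slc38a3, Slc38a5, Slc7a5, Slc7a10 and Slc3a2 sit higher in IP and Slc38a1, Slc38a2 and Slc7a1 lower, and the diets overlap in every panel.

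The order of the carriers was read on a scale per length, as CPM per kilobase of exon. In HFD IP the level was 29.0 ± 2.06 for Slc3a2, 24.8 ± 3.93 for Slc7a10 and 20.3 ± 4.69 for Slc38a3 (SD, n = 4), and neighbours in this order overlapped. In CD IP the same genes had 29.8 ± 2.67, 28.8 ± 3.99 and 19.7 ± 1.95 per kilobase, with overlap between Slc3a2 and Slc7a10 only. Slc7a5, Slc38a1, Slc38a2, Slc7a1 and Slc38a5 followed in this order under both diets, without overlap on this scale. In INPUT the order was another: Slc38a1 with 7.13 ± 0.167 in HFD and 7.67 ± 0.388 in CD overlapped Slc38a2 with 6.98 ± 0.540 in HFD and 7.23 ± 0.559 in CD, and both stood above Slc3a2. Slc38a3 was next to last in INPUT, with 1.73 ± 0.250 per kilobase in HFD and 1.66 ± 0.202 in CD. With the longest transcript as the length, Slc38a3 stood above Slc7a10 in IP, at 34.1 against 26.8 per kilobase in HFD and 33.0 against 31.1 in CD, with overlap under both diets. With that length Slc7a5 and Slc38a1 overlapped in HFD IP, at 10.5 and 8.76 per kilobase, and Slc38a2 and Slc7a1 overlapped in CD IP, at 2.55 and 1.99. In INPUT it parted Slc38a1 from Slc38a2, at 16.9 against 10.1 per kilobase in HFD and 18.2 against 10.5 in CD, without overlap, and placed Slc7a1 just above Slc7a5, with overlap.

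Genes with the profile most like a carrier were sought among 11961 genes over the 16 libraries, by the root mean square difference of log2 CPM centred on each gene's mean. For Slc38a3 they were Kcne1l (0.163), Cldn10 (0.165) and Gpr37l1 (0.169). For Slc7a10 they were the glycine carrier Slc6a9 (0.141), Gli1 (0.153) and the potassium channel Kcnj10 (0.156), and for Slc7a5 they were Notch2 (0.102), Vcl (0.104) and Paqr7 (0.107). The nearest profiles were Pttg1ip for Slc3a2, Inpp5f for Slc38a1, Kcnb2 for Slc38a2, Kcna6 for Slc7a1 and Slc2a12 for Slc38a5. These libraries share the step between IP and INPUT, which dominates the profiles.

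After 3 days of HFD no carrier differed between diets past the threshold, in IP or in INPUT. In IP, 0 of 8 carriers passed an adjusted p of 0.05 and none had diets without overlap, against 0.0883% of 15858 genes called (0.0378% higher and 0.0504% lower) and 6.12% without overlap. In INPUT, 0 of 7 measured carriers passed, against 0.0355% of 16879 genes (0.0237% higher and 0.0118% lower), and none was without overlap, against 4.64%. Slc38a5 was too low to be tested there. The median over the carriers in IP was -0.07 on the log2 scale, with 0.0015 over all genes. For a diet effect that differed between IP and INPUT, 0 of 17592 genes passed in edgeR and 6 in DESeq2. An unadjusted p under 0.05 in edgeR was found for 755 genes (4.29%), a share below that threshold.

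The lowest p among the carriers belonged to Slc7a5 in IP. It had 38.0, 43.5, 34.0 and 32.0 CPM in HFD IP and 41.8, 42.2, 43.9 and 51.6 CPM in CD IP. The HFD libraries lay lower on the whole, but 1 of them reached into the CD range. The log2 fold change was -0.27 ± 0.09 (SE), with an adjusted p of 0.269 (edgeR quasi-likelihood test, Benjamini-Hochberg over all genes). Without the filter on low counts the adjusted p was 0.0405 (edgeR). In INPUT the gene had 11.6, 10.9, 12.4 and 12.8 CPM with HFD and 11.5, 11.05, 12.9 and 13.2 CPM with CD, a log2 fold change of -0.03 ± 0.09. The diet effect in IP minus that in INPUT was -0.26 ± 0.13, with an adjusted p of 0.99985 (edgeR). Summed endothelial markers had a median of 337 CPM in HFD IP and 431 CPM in CD IP and astrocyte markers 47735 and 51113 CPM, with 0 of 18 and 0 of 12 markers called. Their part in the Slc7a5 values was not tested.

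Slc7a10 had 49.2, 62.8, 43.1 and 54.1 CPM in HFD IP and 58.5, 54.5, 56.8 and 73.1 CPM in CD IP. The diets overlapped, and the log2 fold change was -0.20 ± 0.12 with an adjusted p of 0.561 (edgeR). Slc3a2 had 98.7, 112, 95.3 and 103 CPM in HFD IP and 93.3, 108, 104 and 116 CPM in CD IP, a log2 fold change of -0.03 ± 0.07. Slc38a3 differed by 0.06 ± 0.17 and Slc38a5 by 0.04 ± 0.37. The system A carrier Slc38a2 had 13.6, 13.1, 14.2 and 15.1 CPM in HFD IP and 16.2, 16.7, 13.4 and 16.1 CPM in CD IP, again with overlap and with a log2 fold change of -0.15 ± 0.09 (adjusted p = 0.574, edgeR). Slc38a1 differed by -0.06 ± 0.08 and Slc7a1 by -0.08 ± 0.10 in IP.

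In INPUT the diet differences lay between -0.10 and 0.05 on the log2 scale. Slc38a1 had 122, 122, 127 and 120 CPM with HFD and 135, 139, 124 and 131 CPM with CD, and its log2 fold change of -0.10 ± 0.05 had an adjusted p of 0.675 (edgeR). The highest HFD library stood above the lowest CD library. Slc3a2 differed by -0.10 ± 0.07, with an adjusted p of 0.753 (edgeR).

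**Figure D2:**
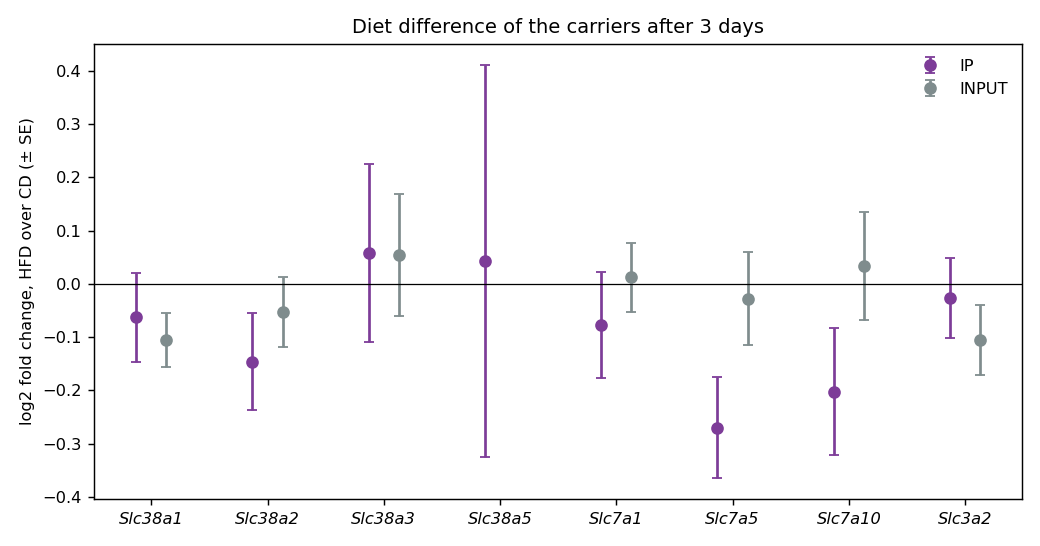
Log2 fold change of HFD over CD for each carrier in IP and in INPUT, with the SE of the fit. Slc7a5 and Slc7a10 have the lowest values in IP, -0.27 and -0.20, and Slc38a5 was tested in IP only.

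The ratio of light chain to heavy chain transcripts per kilobase was described in each library, with no test. Slc7a5 over Slc3a2 was 0.366, 0.369, 0.339 and 0.295 in HFD IP and 0.426, 0.372, 0.401 and 0.423 in CD IP. The diets did not overlap, but the nearest libraries were 0.369 in HFD and 0.372 in CD. Diets were also without overlap in IP for 6.12% of single genes, and the share of gene pairs was not computed. Both light chains together over Slc3a2 overlapped, at 1.10 to 1.31 in HFD IP and 1.22 to 1.48 in CD IP. In INPUT the ratio was 0.562 ± 0.0477 with HFD and 0.533 ± 0.0401 with CD (SD, n = 4), and there the diets overlapped. Slc7a10 over Slc3a2 was 0.850 ± 0.0753 in HFD IP and 0.965 ± 0.104 in CD IP, with overlap.

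The wider amino acid genes also gave no call between diets. In IP, 0 of 14 other Slc38 and Slc7 carriers, 0 of 24 other amino acid carriers, 0 of 20 enzymes of glutamine, glutamate and serine, 0 of 21 genes of the ATF4 response and 0 of 24 genes of amino acid sensing and mTORC1 passed. The smallest p in these lists was that of Slc6a6, the taurine carrier, whose log2 fold change was -0.34 ± 0.07 with an adjusted p of 0.0688 (edgeR). Atf4 itself differed by 0.22 ± 0.09 (adjusted p = 0.357, edgeR). The 24 other amino acid carriers had a median of -0.13, with 19 below 0, against a median of 0.0015 over all genes. The share of all genes below 0 was not computed, and genes of a list need not vary independently. Slc1a2 and Slc1a3 of this list are also astrocyte markers, whose sum had a median of 47735 CPM in HFD IP and 51113 CPM in CD IP. The part of these markers in the list's values was not tested.

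In cEND cells 4 of the 8 carriers were abundant. In the DMSO libraries the level per kilobase was 33.7 ± 4.21 for Slc3a2, 32.6 ± 1.92 for Slc38a2, 23.7 ± 6.43 for Slc7a5 and 9.01 ± 1.59 for Slc7a1 (SD, n = 3), with overlap between Slc3a2 and Slc38a2 only. Slc38a3 followed at 0.102 ± 0.010 per kilobase, 88.0-fold below Slc7a1, from 17, 16 and 21 counts in the DMSO libraries at passages 12, 14 and 18. Slc38a1 had 1 to 21 counts per library. Slc38a5 was at 0 in 5 of 9 libraries and Slc7a10 in 7 of 9, and neither reached 3 counts in any, the floor taken for a count of 0, which corresponds to 0.0733 to 0.105 CPM. These last 3 genes were too low to be tested. The hypothalamic and cEND tables were normalised apart, so no fold is given between them.

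WZB117 at 10 µM was accompanied by higher Slc38a2 and Slc3a2 when libraries were compared within a passage. Slc38a2 had 362, 320 and 395 CPM at 10 µM (passages 12, 14 and 18) and 291, 270 and 304 CPM with DMSO. All 10 µM libraries were above all DMSO libraries, as was true in one direction or the other of 15.6% of 15466 genes. The log2 fold change was 0.31 ± 0.10, with an adjusted p of 0.272 (edgeR) when passages were treated as plain replicates. With passage as a block it was 0.30 ± 0.06, with an adjusted p of 0.000999887 (edgeR). Within passages 12, 14 and 18 the difference was 0.32, 0.24 and 0.38.

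Slc3a2 had 153, 172 and 120 CPM at 10 µM and 110, 136 and 111 CPM with DMSO. The groups overlapped, since the passage 18 library at 10 µM lay below the passage 14 library with DMSO, but 10 µM was higher in 3 of 3 passages. The difference was 0.47, 0.34 and 0.12 at passages 12, 14 and 18. The log2 fold change was 0.31 ± 0.17 with an adjusted p of 0.576 (edgeR), and with passage as a block it was 0.30 ± 0.07 with an adjusted p of 0.00131 (edgeR). Without the block 0 of 5 tested carriers passed, against 1.27% of all genes (0.853% higher and 0.42% lower). With the block 2 of 5 passed, both higher, against 18.5% of all genes called (9.23% higher and 9.29% lower).

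Slc7a5, whose product pairs with that of Slc3a2, had 112, 140 and 51.6 CPM at 10 µM and 96.4, 106 and 61.0 CPM with DMSO. It was higher at passages 12 and 14 and lower at passage 18, by 0.21, 0.40 and -0.24 on the log2 scale. With the block the log2 fold change was 0.12 ± 0.10 (adjusted p = 0.485, edgeR). Slc7a1 had 125, 132 and 71.6 CPM at 10 µM and 108, 120 and 84.0 CPM with DMSO, with the same signs by passage. Its log2 fold change with the block was 0.04 ± 0.07 (adjusted p = 0.808, edgeR). Slc38a3 had 1.69, 0.723 and 1.16 CPM at 10 µM and 0.594, 0.486 and 0.541 CPM with DMSO, without overlap. Such a lack of overlap, in either direction, was found for 15.6% of 15466 genes. The Slc38a3 levels rested on 67, 25 and 43 counts at 10 µM and 17, 16 and 21 counts with DMSO. Without the block its log2 fold change was 1.13 ± 0.48 with an adjusted p of 0.42 (edgeR). With the block its log2 fold change was 1.13 ± 0.44 with an adjusted p of 0.0786 (edgeR).

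At 0.5 µM no carrier passed, with or without the block, and no gene of the table did. Without the block 55 of 15466 genes (0.356%) had an unadjusted p under 0.05 in edgeR, a share below that threshold. DESeq2 called 0 as well. For 0 of 5 carriers, and for 2.79% of all genes, did 0.5 µM and DMSO not overlap. Slc38a2 had 273, 284 and 320 CPM at 0.5 µM, close to its DMSO libraries, and a log2 fold change of 0.01 ± 0.06 with the block. Slc3a2 had 110, 138 and 101 CPM at 0.5 µM and a log2 fold change of -0.05 ± 0.07. Slc7a5 differed by -0.06 ± 0.10, Slc7a1 by -0.12 ± 0.07 and Slc38a3 by -0.22 ± 0.47 in the same fit.

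**Figure D3:**
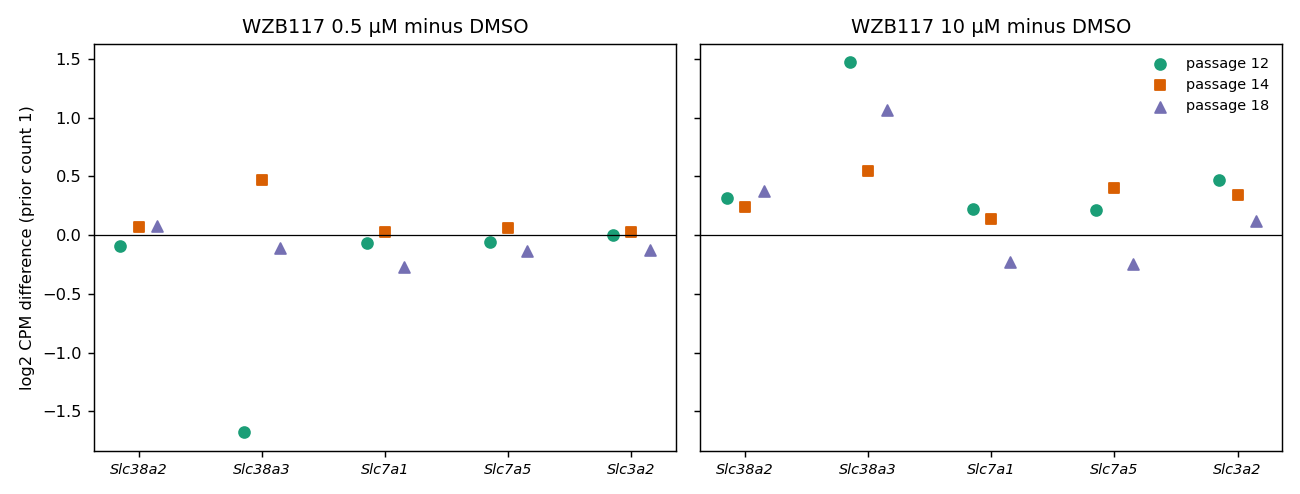
Difference in log2 CPM (prior count of 1) between each WZB117 dose and DMSO of the same passage, for the 5 carriers tested in cEND. Slc38a2 and Slc3a2 are above 0 at 10 µM in all 3 passages, while Slc7a1 and Slc7a5 are below 0 at passage 18.

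The wider lists at 10 µM were read with passage as a block. They were chosen with earlier results of these data known, so their counts are a description. Of the ATF4 response, 14 of 23 measured genes were higher and 0 lower, against 9.23% of all genes higher and 9.29% lower, with a median of 0.38 against -0.015 over all genes. Without the block 3 of 23 passed, all higher, against 0.853% of all genes. Ppp1r15a, which helps end the stress response by aiding dephosphorylation of eIF2 alpha, had a log2 fold change of 1.03 ± 0.08 (adjusted p = 2.6e-09, edgeR), and Ddit4, an inhibitor of mTORC1, 0.87 ± 0.07 (adjusted p = 5.12e-09, edgeR). The other lists are read against the same 18.5% of all genes called. Among 11 other Slc38 and Slc7 carriers 2 were higher and 0 lower. They were Slc7a11, the cystine-glutamate exchanger, at 1.25 ± 0.13 (adjusted p = 0.000353, edgeR) and Slc7a3, a cationic amino acid carrier, at 0.32 ± 0.11 (adjusted p = 0.0388, edgeR). Slc1a5, a glutamine exchanger of the plasma membrane, fell by 0.44 on the log2 scale (SE 0.06, adjusted p = 8.76e-06, edgeR), 1 of 3 called among 14 other amino acid carriers. Without the block the 3 smallest p of this list lay in both directions. They were those of Slc6a9 (0.49 ± 0.13), Slc1a5 (-0.43 ± 0.12) and Slc36a4 (0.37 ± 0.14), with adjusted p of 0.135, 0.154 and 0.324 (edgeR). Of 19 enzymes 5 were higher and 1 lower, with Asns, which makes asparagine, at 0.34 ± 0.07. In amino acid sensing and mTORC1 1 of 24 passed, namely Sesn3 at 0.63 ± 0.15.

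LAT1 and CAT1 were lower at the latest passage. Slc7a5 had 96.4, 92.6 and 112 CPM at passage 12 (DMSO, 0.5 and 10 µM), 106, 111 and 140 CPM at passage 14 and 61.0, 55.5 and 51.6 CPM at passage 18. All 3 libraries of passage 18 lay below all others. Passage 18 against passage 12 gave a log2 fold change of -0.85 ± 0.10 with an adjusted p of 7.66e-05 (edgeR). The difference was -0.66 with DMSO, -0.74 at 0.5 µM and -1.11 at 10 µM. Each passage is 1 culture, so these p-values measure the spread between its libraries only.

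Slc7a1 had 108, 103 and 125 CPM at passage 12 (DMSO, 0.5 and 10 µM), 120, 122 and 132 CPM at passage 14 and 84.0, 69.7 and 71.6 CPM at passage 18. Passage 18 again lay below all other libraries. The log2 fold change of passage 18 against passage 12 was -0.59 ± 0.07, with an adjusted p of 6.56e-07 (edgeR). The difference was -0.36 with DMSO, -0.56 at 0.5 µM and -0.81 at 10 µM. Both genes lay in the same direction in 3 of 3 treatments, and whether the step depended on treatment was not tested.

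Slc3a2 had a smaller difference between these passages. It had 110, 110 and 153 CPM at passage 12 (DMSO, 0.5 and 10 µM), 136, 138 and 172 CPM at passage 14 and 111, 101 and 120 CPM at passage 18, and passages 18 and 12 overlapped. Passage 18 against passage 12 gave -0.17 ± 0.07 with an adjusted p of 0.0455 (edgeR), and this call was lost with DESeq2's size factors in edgeR, with DESeq2, without the low count filter, with treatment left out of the model and without any of 5 of the 6 libraries, all but the DMSO library of passage 18. Over these settings the adjusted p lay between 0.0517 and 0.413 (edgeR and DESeq2). Passage 14 against passage 12 gave 0.26 ± 0.07 with an adjusted p of 0.00388 (edgeR). That call was lost without the DMSO library of passage 12 (adjusted p = 0.0769, edgeR), without the 0.5 µM library of passage 14 (adjusted p = 0.0662, edgeR) and with treatment left out of the model (adjusted p = 0.322, edgeR).

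Slc38a2 and Slc38a3 were not called between passages. For Slc38a2 the log2 fold change was 0.13 ± 0.06 for passage 18 against 12 (adjusted p = 0.134, edgeR) and -0.08 ± 0.06 for passage 14 against 12. Counts of carriers called were thus 3 of 5, all lower, for passage 18, where 35.1% of all genes were called (15.9% higher and 19.2% lower). For passage 14 they were 1 of 5, higher, where 21.6% of all genes were called (10.1% higher and 11.5% lower). Passages 18 and 12 did not overlap for 2 of 5 carriers, and for 35.3% of all genes.

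**Figure D4:**
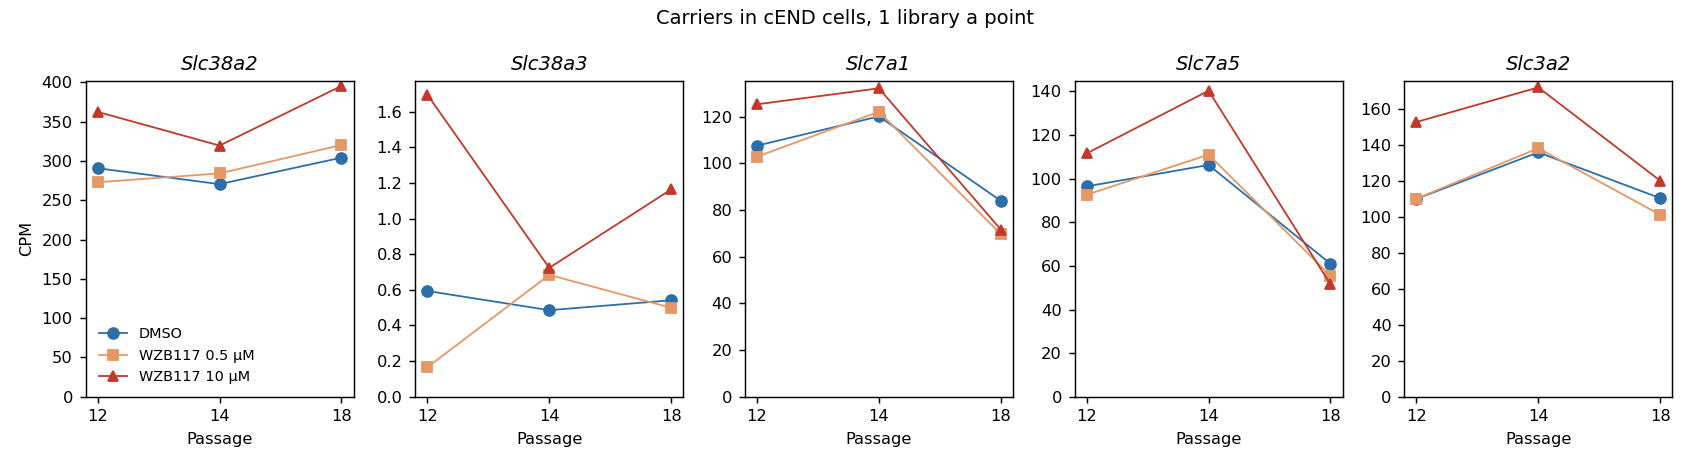
CPM of the 5 carriers tested in cEND by passage, with 1 library a point and a line for each of DMSO, 0.5 and 10 µM WZB117. Slc7a5 and Slc7a1 are lowest at passage 18 at every dose, and Slc38a2 is highest at 10 µM in each passage.

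The ratio of Slc7a5 to Slc3a2 per kilobase in cEND, again without a test, was 0.775 ± 0.0724 at passage 12, 0.760 ± 0.0162 at passage 14 and 0.484 ± 0.0664 at passage 18 (SD, n = 3). The 3 ratios at passage 18 were 0.525 with DMSO, 0.521 at 0.5 µM and 0.408 at 10 µM, all below the other 6. In the hypothalamic IP and INPUT libraries the highest ratio was 0.608.

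**Figure D5:**
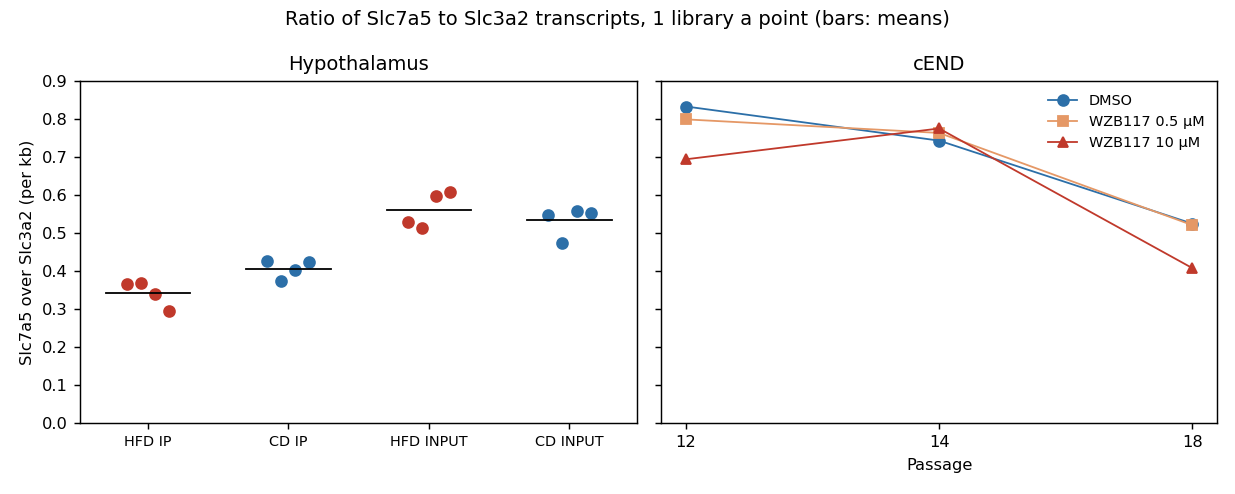
Ratio of Slc7a5 to Slc3a2 transcripts, each per kilobase of exon, in the hypothalamic groups (bars are means of 4 pools) and in cEND by passage and dose. HFD IP lies lowest, at 0.295 to 0.369, close below CD IP at 0.372 to 0.426, and cEND at passages 12 and 14 highest.

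In other carriers the passages ran differently. Slc7a3 was higher at passage 18 than at passage 12 by 2.07 ± 0.12 on the log2 scale (adjusted p = 1.44e-13, edgeR), while Slc7a11 fell by 0.70 (SE 0.13, adjusted p = 0.00349, edgeR). Over all genes 35.1% were called in this comparison, 15.9% higher and 19.2% lower. Of 11 other Slc38 and Slc7 carriers 2 were higher and 3 lower. Of the 19 enzymes 2 were higher and 8 lower, among them Got2, a mitochondrial aspartate aminotransferase, at -0.66 ± 0.06. Of 24 genes of amino acid sensing and mTORC1 7 were higher and 6 lower, and of 23 genes of the ATF4 response 6 were higher and 4 lower. In the same comparison 12 of 14 measured endothelial markers were higher and 1 lower, and their part in the carriers' values was not tested.

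Over the 9 cEND libraries the profiles nearest to Slc7a5 among 10636 genes were Ugdh (0.101), Syk and Cd44, and those nearest to Slc7a1 were Tubb2a, Bend6 and Ifrd1. Slc38a2 was nearest to Srpr (0.0288), Atp10d and Pik3r4, and Slc3a2 to Gpr137b, Atg4d and Map1lc3a. No carrier was among the 3 nearest of another, for the 8 searched in the hypothalamic libraries and the 5 searched in cEND.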

How the data were processed

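For each experiment the authors deposited estimated counts by Ensembl ID; totals differ between libraries, so the values are unscaled. The build was GRCm38, per the submitters' processing notes; the program, annotation and strand setting are not given in the sources used here. Of the values, 17.3% and 19.8% were not whole, and all were rounded. Symbols and positions came from GENCODE M21 by Ensembl ID, and sequences from the RefSeq GRCm38.p6 genome.

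Counts were scaled by TMM, filtered with filterByExpr (minimum count 10) and fitted with the robust quasi-likelihood model of edgeR 4.0.16 in R 4.3.3, with 2-sided tests and Benjamini-Hochberg adjustment over all genes tested (threshold 0.05). Diets were compared in IP and in INPUT apart, IP with INPUT in all 16 libraries with diet in the model, and doses in 1 fit of the 9 cEND libraries. Passages were compared with treatment in the model. The method was tested on simulated counts with known folds, drawn independently and without passage or pool structure. That test therefore does not show how the fits behave with such structure. CPM uses TMM-scaled totals. DESeq2 1.42.0 was an alternative, as were other size factors, no filter, other fits and leaving out libraries.

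The members and lists were chosen with earlier results of these data known. The 8 carriers are named in every comparison, with up to 4 genes of smallest p per list and the 3 nearest profiles per carrier. The cEND numbers are passages, per the labels. Libraries of the same passage deviated together (r of 0.351 to 0.543, against -0.394 to -0.0748 between passages), so passage pairs them. Hypothalamic libraries of the same number had r of -0.0211 to 0.121, against -0.142 to 0.0929 between numbers, and did not reach 0.1 in every pair, so no pairing was taken. For CD IP with CD INPUT the same-number r was 0.0426 to 0.0924, above the -0.0517 to 0.0185 between numbers. IP and INPUT libraries carry the same numbers in their titles, so those of the same diet and number may be fractions of the same pool. The main fits across IP and INPUT treat them as separate, whereas the replicate block of those fits pairs them by number. For diets within IP or within INPUT, the replicate block instead joins HFD and CD pools of the same number. That pairing is arbitrary, since those pools share no mice. Pools of different diet or number are separate mice, and the passages are 1 line. No pair of libraries within a group was a duplicate (chi-square over its degrees of freedom at least 9.08).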

Additional observations from a re-analysis of the deposited data

How the results depend on the processing

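Counts of genes called moved more than the carriers did. For HFD against CD in IP the count was 14, against 398 without the filter on low counts, 183 with DESeq2, 52 with the replicate block, 121 with all 16 libraries in 1 fit and 5 (without CD IP pool 4) to 50 (without HFD IP pool 2) without single libraries. In INPUT it was 6, against 116, 50, 43, 2 and 2 (without CD INPUT pool 3) to 17 (without HFD INPUT pool 2) in the same order. For the difference of diet effects it was 0, against 1 without the filter, 6 with DESeq2, 1 with the replicate block and 0 to 1 without single libraries. For 10 µM against DMSO it was 197, against 504 with DESeq2, 2864 with the replicate block and 38 (without DMSO at passage 12) to 171 (without 10 µM at passage 14) without single libraries. With 0.5 µM it was 0 throughout. For passage 18 against 12 it was 5422, against 3269 with treatment not in the fit and 4154 to 4737 without single libraries. For passage 14 against 12 it was 3336, against 1623 and 2086 to 2885 in the same way. For IP against INPUT it was 13995, and 13922 to 14152 without single libraries. The causes were not tested.

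Of the carriers' values under these alternatives 652 were kept, 12 lost a call, 6 gained one and 55 changed sign. Kept means the same direction and the same side of the threshold. For IP against INPUT, where no threshold was applied to the carriers, it means the same direction and a shift below the mean SD within groups. The hypothalamic replicate block changed no carrier's call. The sign changes came from leaving out 1 library, save that Slc38a3 at passage 18 against 12 was 0.019 with DESeq2. On the log2 scale the ranges without single libraries, for HFD against CD in IP, were -0.13 to 0.0013 for Slc38a1, -0.082 to 0.19 for Slc38a3, -0.26 to 0.27 for Slc38a5 and -0.083 to 0.021 for Slc3a2. In INPUT they were -0.021 to 0.14 for Slc38a3, -0.020 to 0.044 for Slc7a1, -0.042 to 0.11 for Slc7a10 and -0.075 to 0.015 for Slc7a5. For the difference of diet effects they were -0.036 to 0.093 for Slc38a1, -0.15 to 0.12 for Slc38a3 and -0.38 to 0.22 for Slc38a5. For 0.5 µM against DMSO they were -0.060 to 0.057 for Slc38a2, -0.69 to 0.13 for Slc38a3, -0.17 to 0.071 for Slc3a2, -0.27 to 0.10 for Slc7a1 and -0.25 to 0.20 for Slc7a5. For 10 µM they were -0.090 to 0.30 for Slc7a1 and -0.12 to 0.51 for Slc7a5. For Slc38a3 they were -0.52 to 0.65 at passage 18 and -0.67 to 0.54 at passage 14, against passage 12. At passage 14 the call of Slc7a5 was gained without the filter (adjusted p = 0.00237, edgeR) and without the DMSO library of passage 14 (adjusted p = 0.012, edgeR), and that of Slc7a1 without the 10 µM library of passage 12 (adjusted p = 0.0356, edgeR).

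Scaling by the total without ribosomal and mitochondrial RNA moved the median log2 ratio of IP to INPUT over all genes by -0.37, and the carriers kept their signs, with 3.19 for Slc38a3. With 3 or 4 libraries a group, differences of more than 2 times their SE also went uncalled, such as that of Slc7a5 between diets in IP. Slc38a5, Slc38a1 and Slc7a10 were too low in cEND for any estimate.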
